A study of Rattus norvegicus with 13 samples.

Results

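The left ventricle of wild-type (WT) rats was examined from the 6 arrays titled WT heart 1 to WT heart 6, out of 13 arrays in the series. The members were taken by title alone, so no measured value entered the choice. The other 7 arrays, from rats overexpressing ADBR3 (the labels' spelling for the beta-3 adrenergic receptor), were not used. All 6 arrays held total RNA of left ventricle of male WT rats aged 45 weeks, labelled with the single dye Cy3. Hearts 1 and 2 were replicate labelings of the RNA of 1 rat, and heart 5 was a replicate hybridization whose partner array the labels do not name. The series counts 4 WT rats, so values are given for 4 rats: the mean of hearts 1 and 2, called the first rat, and hearts 3, 4 and 6. Heart 5 is given beside them and enters no mean. The sources used here give neither the strain of the rats nor how the ventricle was dissected.

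The left ventricle pumps blood into the systemic circulation. Its cardiomyocytes hold arrays of sarcomeres, in which myosin heavy and light chains pull on actin filaments whose availability is set by tropomyosin and the calcium-sensing troponin complex. Calcium enters through L-type channels, is released from the sarcoplasmic reticulum by ryanodine receptors and is returned there by the SERCA pump, which phospholamban holds back. The work is paid for almost wholly by mitochondria that burn fatty acids, lactate and glucose. By cell number much of the tissue is endothelium, fibroblasts, mural cells and resident macrophages. In whole tissue, fewer cells of a type and less RNA per cell cannot be told apart.

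A level is the log2 processed signal of a probe minus the 75th percentile of its array, so a level of 0 is the signal that 25% of spots exceed, and a step of 1 is a 2-fold difference in signal. Each gene is read by its brightest probe, and ± is the SD over 4 rats. Different probes bind and label with different efficiency. A higher level of gene A than of gene B is therefore a brighter signal and not a count of molecules, and the gap seen between probes of the same gene, given below, is the yardstick for gaps between genes. The arrays were alike in brightness, with 75th percentiles of 760.4 to 908.7 intensity units and 0 saturated spots. Within an array, 1390 probes printed 10 times each had a median SD of 0.0699 to 0.0854. Over 14714 probes well above background on all 6 arrays, the SD of the difference was 0.175 between hearts 1 and 2 and 0.148 between hearts 4 and 5, against 0.232 to 0.310 for the other pairs. Hearts 3, 4 and 5 were each the only WT array on their slide, and heart 4 was scanned on another day than the rest, so rat and slide cannot be told apart for them.

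A signal in the ventricle was found for somewhat more genes than not. Of 17597 gene symbols, 9528 (54.1%) had a probe well above background on all 6 arrays and 4647 (26.4%) on none. Features named only by a clone, transcript or probe number were called less often, 3498 of 8518 (41.1%) on all 6 and 3386 (39.8%) on none. The call depended on the array. It covered 49.1% of probes on heart 2 and 53.4% on heart 6, but 58.8% to 63.5% on the other arrays, and 894 probes missed the call on heart 2 alone. Heart 5 called 926 probes that no other array did. Hearts 1 and 2, which differ in this share, hold RNA of the same rat. Of all 30367 probes, 14714 (48.5%) were called on all 6 arrays and 9627 (31.7%) on none.

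**Figure D1:**
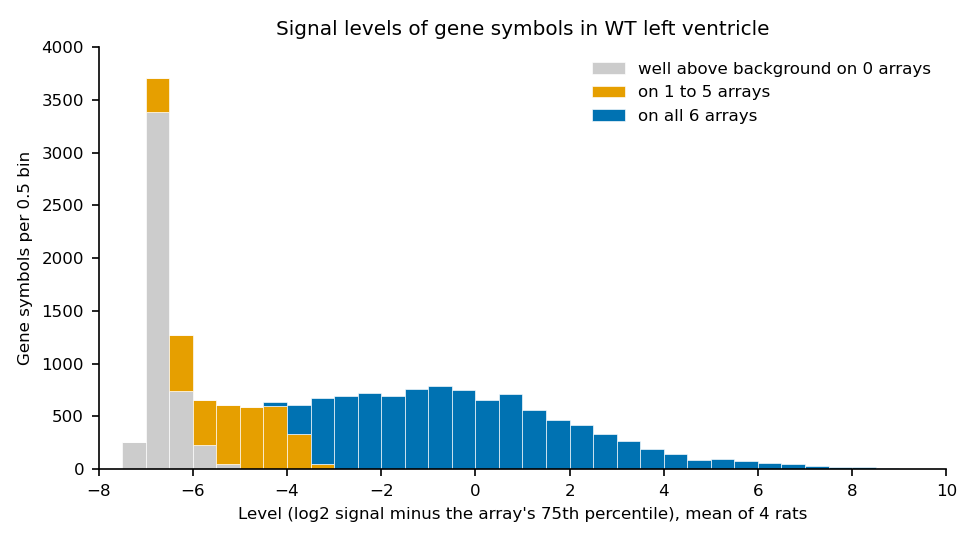
Stacked histogram of the levels of 17597 gene symbols (x axis, level on the log2 scale, relative to the 75th percentile of the array, mean of 4 rats; y axis, symbols per bin of 0.5), split by the number of arrays on which any probe was well above background. Symbols called on 0 arrays pile up near the floor below -6, and the median of the 9528 called on all 6 was -0.39.

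Chemosensory receptors, which serve smell and taste, were mostly dark among the name groups examined. Of 1172 olfactory receptor symbols 36 (3.07%) were called on all 6 arrays and 901 on none, and the taste receptors had 1 of 36. Genes of general cell upkeep were at the other end, with 39 of 41 proteasome subunits and 69 of 71 mitochondrial ribosomal proteins called on all 6. The few sensory receptors with a clear signal were chosen for naming after their values were seen. The pheromone receptor gene Vom2r34 stood at 1.74, 1.62, 1.86 and 1.66 in the first rat and in hearts 3, 4 and 6. Olr3, an olfactory receptor, stood at 0.70, 0.14, -0.19 and 1.77. The first is steady between rats, while the second spans nearly 2 log2 units.

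The brightest signals came from the contractile apparatus and the mitochondria. Among the 25 gene symbols with the highest mean were Actc1 (cardiac actin), both cardiac myosin heavy chains, all subunits of the cardiac troponin complex and Myl3 (essential light chain). The first place went to Mb, the oxygen-binding protein myoglobin, at 9.47, 9.15, 9.41 and 9.49 in the 4 rats (9.38 ± 0.15). Actc1 followed at 9.47, 9.04, 9.41 and 9.37. Myh6, the fast alpha myosin heavy chain, read 9.27, 8.91, 9.27 and 9.26. Heart 3 was the lowest of the 4 in each. Tnnt2 (troponin T, which anchors the complex to tropomyosin) read 9.13, 8.61, 9.13 and 9.04, Tnni3 (the inhibitory subunit) 8.59 ± 0.10 and Tnnc1 (the calcium sensor) 8.25 ± 0.09. Pln, which encodes phospholamban, stood at 8.32 ± 0.15 and Cryab, a small heat shock protein that protects desmin and titin, at 8.88 ± 0.16.

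Mitochondrial genes took 10 of the 25 places. They were the respiratory chain and ATP synthase subunits Cox6a2 (8.77 ± 0.14), Atp5a1 (8.73 ± 0.13), Atp5i (8.33 ± 0.07), Uqcr10 (8.25 ± 0.11), Cox4i1 (8.18 ± 0.06), Atp5g1 (8.12 ± 0.09) and Cox5b (8.08 ± 0.09). To these came Idh2, a mitochondrial isocitrate dehydrogenase (8.26 ± 0.15), Ckmt2, the mitochondrial creatine kinase that passes phosphate from ATP to creatine (8.07 ± 0.14), and Chchd10, a protein of the intermembrane space (8.34 ± 0.06). Ldhb, the heart form of lactate dehydrogenase, read 8.18 ± 0.05. Rpl41, a ribosomal protein (8.10 ± 0.06), and Hba1, an alpha globin of red cells (8.05 ± 0.12), closed the list. The order was steady: of the 25 symbols, 24 were also in the top 25 of the first rat, of heart 3 and of heart 4, and 23 in that of heart 6. Neighbours in the order mostly lay closer than their SDs. Crip2 (8.04) and Cox8b (8.02) came next, within the SD of Hba1.

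**Figure D2:**
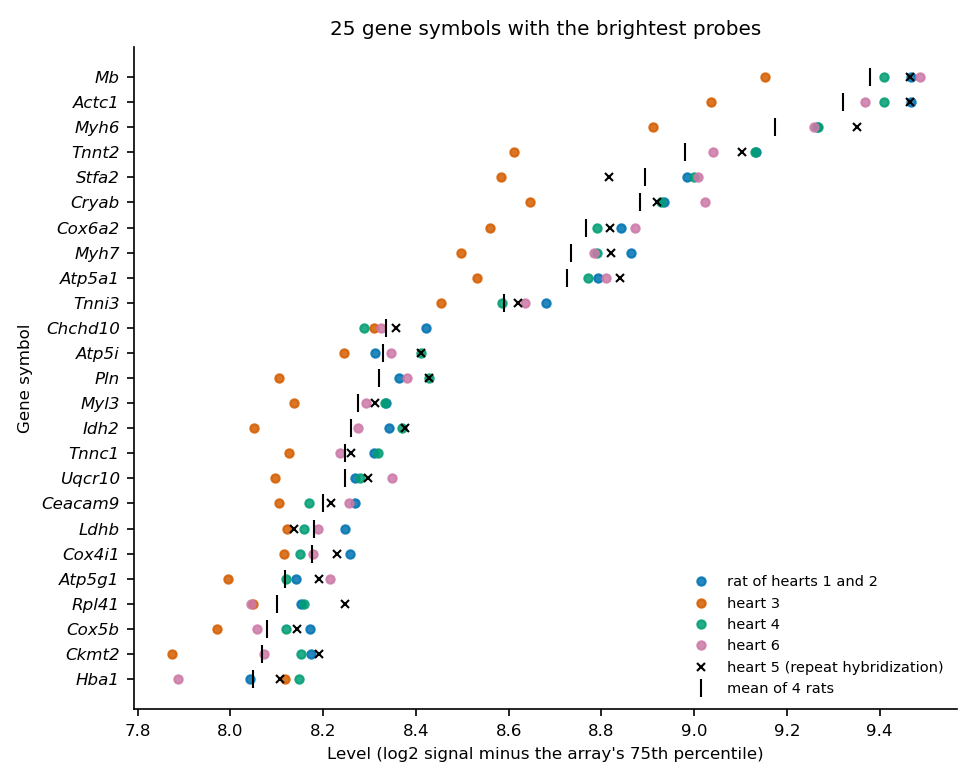
Levels of the 25 gene symbols with the brightest probes (x axis, level on the log2 scale, relative to the 75th percentile of the array; y axis, gene symbol), with a point per rat, a cross for heart 5 and a bar for the mean of 4 rats. The brightest is Mb at 9.38, and heart 3 lies lowest of the 4 rats for each of the first 10 symbols, as at 8.61 for Tnnt2.

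The low position of heart 3 grew with signal. Its median deviation from the mean of the other 3 rats was -0.03 over 3600 called symbols with levels of 0 to 4, -0.07 over 154 symbols at 6 to 8 and -0.20 over 27 symbols above 8. Heart 3 was the rat farthest from the others for 21 of those 27. The top of its scale was also lowest, with a brightest probe at 9.15 against 9.41 to 9.49 on the other arrays. Whether this is the animal or the array cannot be told apart. Differences between 2 bright genes within a rat are less touched by it: Myh6 exceeded Myh7, the slow beta heavy chain, by 0.44 ± 0.04, a spread much smaller than the SD of either gene (0.18 and 0.16).

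Not all of the brightest probes read a known messenger RNA. Of the 100 brightest probes, 52 carry a gene symbol and no identifier repeat. A group of 14 are copies of glyceraldehyde-3-phosphate dehydrogenase or share 25 bases with such a copy, 10 lie in the mitochondrial genome and 4 read 18S ribosomal RNA. Another 14 have no name, 5 have another kind of name, and Stfa2 carries a repeat described below. The proteins encoded by the mitochondrial genome are all parts of the respiratory chain or ATP synthase, and its messengers are copied as long joint transcripts from each strand. Probes for ATP synthase subunit 6 (8.63 ± 0.21), NADH dehydrogenase subunit 1 (8.54 ± 0.20) and cytochrome b (8.40 ± 0.20) were the brightest. Subunit 4L, at 7.20 ± 0.19, was the dimmest of the probes named for a single messenger of the shared strand. NADH dehydrogenase subunit 6, the protein gene on the opposite strand, read 1.48, 1.53, 1.61 and 1.27, more than 5 log2 units below all of them.

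Across 66 families of related genes, the brightest member was the same in 4 of 4 rats for 62. The median gap between the brightest and the next member was 2.59. For comparison, 1416 symbols have 2 or more probes called on all 6 arrays, and the gap between the brightest and dimmest probe of the same symbol had a median of 1.69, a 75th percentile of 3.07 and a 90th percentile of 4.53. A gap between family members of less than about 4.53 is thus within the range that different probes of a single gene can show, and 17 of the 66 families exceeded it. In 13 of the 17 the second member was called on all 6 arrays, as the probes behind the yardstick were, and in 4 it was not. The comparison is not like for like in construction either. The yardstick sets the brightest against the dimmest probe of a symbol, and a family gap sets the brightest probes of different genes. Gaps between called probes of the same symbol also reached 9.73.

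**Figure D3:**
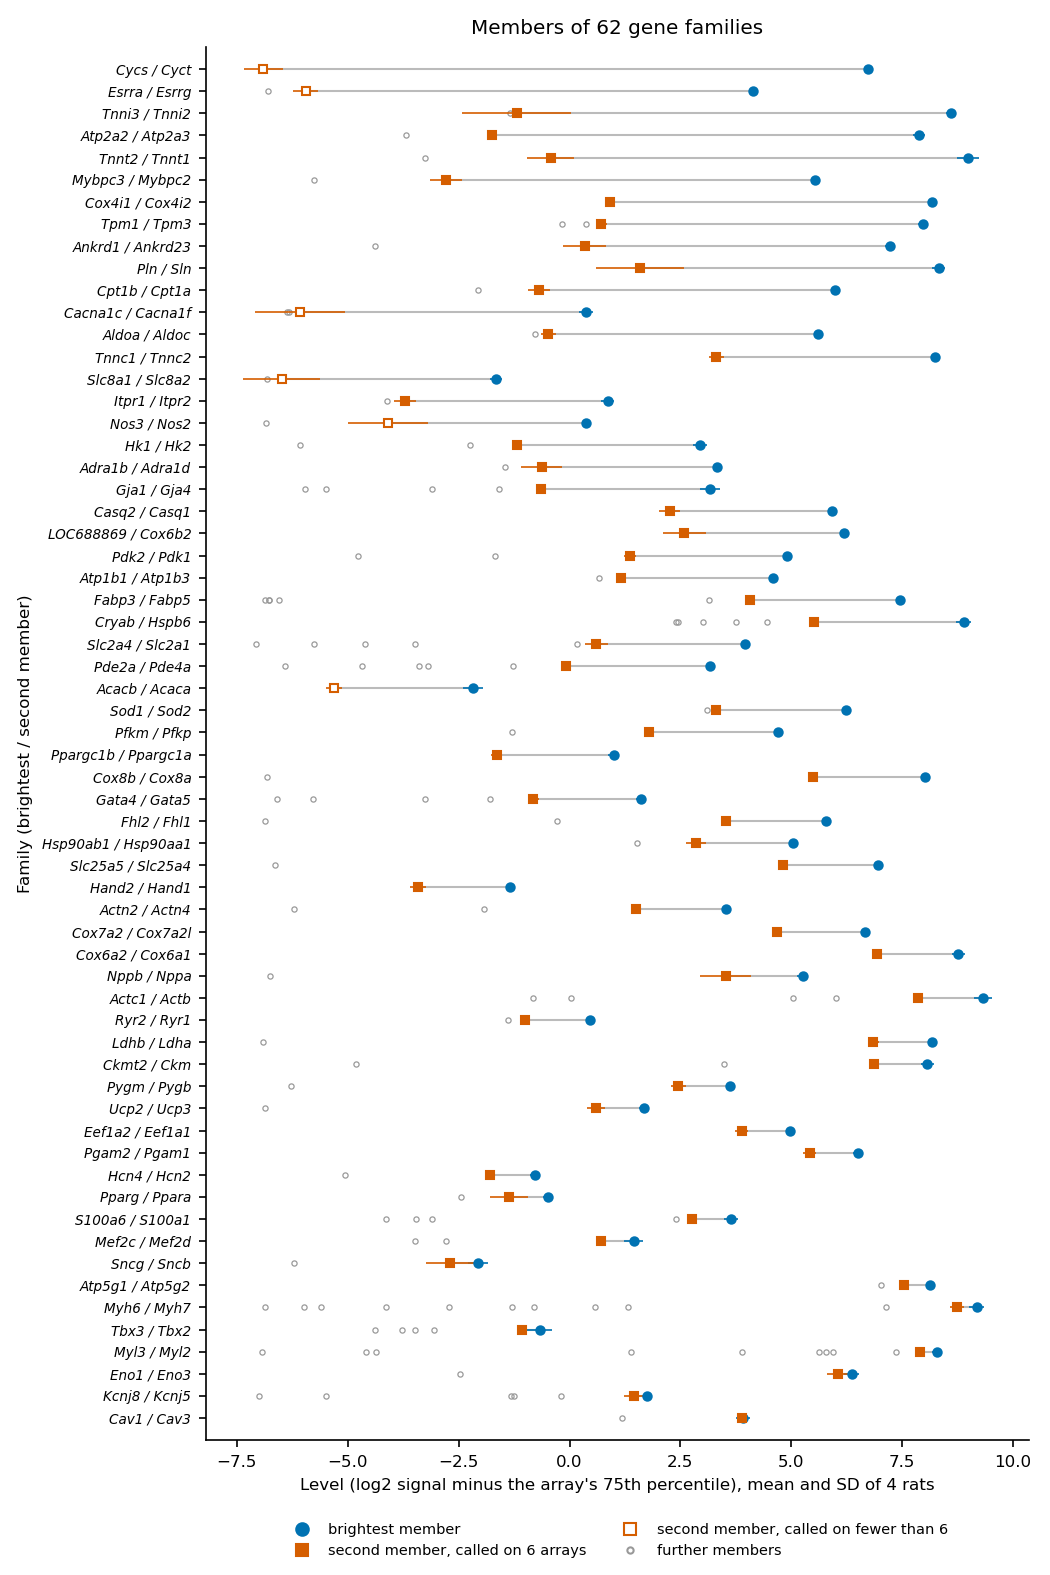
Members of 62 of the 66 gene families (y axis, brightest and second member; x axis, level on the log2 scale, relative to the 75th percentile of the array, mean of 4 rats with SD bars for the first 2). Families are ordered by the gap, from 13.64 between the measured means of Cycs and Cyct (called on 0 arrays) at the top to 0.01 between Cav1 and Cav3 at the bottom.

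In the thin filament of the sarcomere the cardiac member was the brightest in the troponin and actin families. Tnni3 stood 9.78 ± 1.19 above Tnni2, the fast skeletal form of troponin I. Tnnt2 stood 9.40 ± 0.57 above the slow skeletal Tnnt1, and Tnnc1 4.94 ± 0.19 above Tnnc2, its fast skeletal relative. Among the actins Actc1 was followed by the cytoskeletal Actb (7.85 ± 0.10) and Actg1 (6.00 ± 0.14), and then by Acta1, the skeletal actin, at 5.01, 4.89, 4.94 and 5.28. Tpm1 (alpha tropomyosin) exceeded Tpm3 by 7.25 ± 0.22. This order rests on the probe chosen, since the other called probe of Tpm1 read 0.22, below Tpm3 at 0.72. Skeletal troponin genes were not dark. Tnnc2 stood at 3.31 ± 0.16, and Tnni1, the slow and fetal form, at -1.34 ± 0.34, both called on all 6 arrays. Tnni2 itself is unsafe, because it read -0.24 in heart 1 and 1.52 in heart 2, 2 labelings of the same RNA, and between -1.99 and -1.56 in the other rats.

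The thick filament showed both cardiac heavy chains. Myh7 read 8.86, 8.50, 8.79 and 8.78, so its level in each rat was only slightly under that of Myh6, and the gap of 0.44 is far inside what probes of the same gene show. The myosin light chains Myl3 (8.27 ± 0.09) and Myl2, the ventricular regulatory chain (7.90 ± 0.06), were also close. Mybpc3, the cardiac myosin binding protein C, led Mybpc2 by 8.31 ± 0.40. The adult fast skeletal heavy chains Myh1 (-6.86 ± 0.56) and Myh2 (-5.99 ± 0.45) were called on 0 arrays and Myh4 (-5.61 ± 0.36) on 1, while the embryonic Myh3 was called on 4 (-4.14 ± 0.81). Smooth muscle Myh11 read 0.58 ± 0.21 and nonmuscle Myh9 -2.71 ± 0.05.

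A pair of probes for skeletal heavy chains broke this order. The probe of Myh8, the perinatal chain, stood at 7.12 ± 0.32, and a probe for a transcript annotated as Myh13, a chain of eye muscles, at 8.58 ± 0.15. Both overlap the position of the Myh6 probe in the conserved end of the rod, and their letters are shown because they bear on what the signals read. In the following lines capitals mark bases equal to the Myh6 probe at the alignment without gaps that has the longest unbroken run. The Myh6 probe lies at chr15:33044576-33044983 on the minus strand, across a splice junction, the Myh8 probe at chr10:54002239-54002298 and the probe annotated as Myh13 at chr10:54086927-54086986, both on the plus strand (build rn4).
Myh6: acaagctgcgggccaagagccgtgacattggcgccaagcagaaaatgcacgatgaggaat
Myh8: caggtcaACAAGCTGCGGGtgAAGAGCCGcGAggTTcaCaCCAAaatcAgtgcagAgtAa
Myh13: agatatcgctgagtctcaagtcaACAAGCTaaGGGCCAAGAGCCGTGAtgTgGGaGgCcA
The probe annotated as Myh13 equals the Myh6 probe at 29 of 37 overlapping bases, with 16 in an unbroken run, and the Myh8 probe at 32 of 53 with a run of 12. The Myh7 probe reads another place, at base 5586 of its transcript against base 5795 for Myh6. Its 15 of 33 equal bases, with a longest run of 9, thus do not measure how alike these chains are. The dim Myh3 probe has 27 of 44 with a run of 8, so the share of equal bases alone does not order the signals. Binding of Myh6 RNA to these probes was not tested.

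The cardiac forms were the brightest in calcium cycling as well. Atp2a2, the SERCA pump of heart and slow muscle, read 7.88, 7.67, 7.98 and 7.97 and stood 9.62 ± 0.18 above Atp2a3. Casq2, the calcium buffer of the cardiac reticulum, exceeded the skeletal Casq1 by 3.66 ± 0.22. Cacna1c, the pore of the L-type channel, read 0.36 ± 0.16, and its relative Cacna1f was called on 1 array. Probes for the large channels were dim for their role: Ryr2 read 0.46 ± 0.08, only 1.46 ± 0.13 above the skeletal Ryr1, and Slc8a1, the sodium-calcium exchanger, -1.67 ± 0.14. Itpr1 led the IP3 receptors at 0.86 ± 0.14, and Itpr2, described as the form of atrial and ventricular myocytes, was called on all 6 arrays at -3.72 ± 0.24.

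The inhibitors of the SERCA pump differed in how steady they were. Pln read 8.36, 8.11, 8.43 and 8.38. Sln, sarcolipin, which is known from atrial muscle, read 1.73, 0.28, 1.62 and 2.71. Sln thus varied by more than 2 log2 units with heart 3 lowest and heart 6 highest, and the gap between them, 6.73 ± 0.88, still had the same sign in 4 of 4 rats. Hearts 1 and 2, labelings of the same RNA, differed by 0.03 for Sln.

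The ion channels, gap junction proteins and sodium pump subunits named here all read above the median of all symbols, -3.14. Gja1, connexin 43, which couples ventricular myocytes, read 3.17 ± 0.22 against -0.64 ± 0.08 for the endothelial Gja4. Atp1b1, a beta subunit of the sodium pump, read 4.59 ± 0.10 and stood 3.42 ± 0.18 above Atp1b3. Among inward rectifier potassium channels Kcnj8 (1.74 ± 0.12) and Kcnj5 (1.45 ± 0.21) could not be ordered, since the difference of 0.30 ± 0.32 kept its sign in 3 of 4 rats. Hcn4, a pacemaker channel, read -0.79 ± 0.10 and Hcn2 -1.80 ± 0.06.

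In several families of energy metabolism the muscle or heart isoform gave the brightest signal. Cpt1b, the muscle form of the enzyme that admits fatty acids to mitochondria, read 6.67 ± 0.24 above the liver form Cpt1a. Fabp3, the heart fatty acid binding protein, stood 3.39 ± 0.13 above Fabp5, and Slc2a4, the insulin-responsive glucose transporter GLUT4, 3.35 ± 0.25 above Slc2a1 (GLUT1). Pdk2 (4.90 ± 0.07) led the pyruvate dehydrogenase kinases, and Pfkm, the muscle phosphofructokinase, exceeded Pfkp by 2.91 ± 0.11. Cox4i1 stood 7.26 ± 0.05 above Cox4i2, which is known from lung. The muscle forms of cytochrome oxidase subunits Cox6a2 and Cox8b exceeded the widespread Cox6a1 and Cox8a by 1.82 ± 0.09 and 2.54 ± 0.04. The largest gap in all 66 families was that of cytochrome c. Somatic Cycs at 6.73 ± 0.04 stood 13.64 ± 0.44 above the measured mean of the testis gene Cyct. Cyct was called on 0 arrays, so the size of this gap is uncertain.

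Of the gaps just given, those of Cpt1b, Cox4i1 and Cycs exceeded the 4.53 between probes of a gene, and the others lay under it. For Cpt1b the order rests on the probe chosen, since its other called probe read -1.72, below Cpt1a at -0.69. Further enzyme families had gaps under 4.53 as well. Ldhb exceeded Ldha, the form known from glycolytic muscle, by 1.33 ± 0.08, and Ckmt2 exceeded the cytosolic muscle creatine kinase Ckm (6.86 ± 0.07) by 1.21 ± 0.08. The order was the same in 4 of 4 rats but the size is below the median gap between probes of a gene. Eno1, the widespread enolase, read 0.30 ± 0.20 above the muscle enolase Eno3. With the median of each gene's probes in place of the brightest, this difference turned to -1.58. Hk1 read 4.14 ± 0.17 above Hk2, and Slc25a5 2.14 ± 0.09 above Slc25a4, the ADP/ATP carrier described as the heart and muscle form. Eef1a2, the elongation factor form of muscle and neurons, read 4.96 ± 0.08 against 3.88 ± 0.15 for the widespread Eef1a1.

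Signals of transcriptional regulators ranged widely, beside a median of -3.14 and a 90th percentile of 2.04 over all symbols. Esrra, an orphan receptor that drives mitochondrial genes, stood at 4.13 ± 0.06, and its relatives Esrrg (-5.95 ± 0.29) and Esrrb (-6.80 ± 0.50) were called on 0 arrays. Ppargc1b (0.99 ± 0.13) exceeded Ppargc1a (-1.64 ± 0.12), the coactivators of that programme, by 2.63 ± 0.13. Pparg, best known from fat, read -0.48 ± 0.11, above Ppara at -1.81, -1.67, -0.96 and -1.05. Ppara was higher in hearts 4 and 6 than in the other 2 rats. Gata4, a factor of the cardiac lineage, read 1.60 ± 0.11, Mef2c 1.44 ± 0.22, Nkx2-5 2.44 ± 0.11, Hand2 -1.35 ± 0.08 and Tbx3 -0.68 ± 0.27.

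The remaining families fall into a few kinds. Ankrd1, a stress-responsive protein of the sarcomere, stood 6.88 ± 0.42 above Ankrd23, and Fhl2, a cardiac LIM protein, 2.24 ± 0.07 above Fhl1. Actn2, the alpha actinin of the Z disc, read 3.53 ± 0.10, 2.04 ± 0.10 above Actn4. Cryab exceeded Hspb6, another small heat shock protein, by 3.38 ± 0.12. These leaders are all muscle forms except Cryab, which other tissues make as well. In glycolysis and glycogen use, Aldoa exceeded Aldoc by 6.09 ± 0.15, Pgam2, the muscle phosphoglycerate mutase, Pgam1 by 1.08 ± 0.22, and Pygm, the muscle phosphorylase, Pygb by 1.16 ± 0.26. Acacb, the acetyl-CoA carboxylase that restrains Cpt1b, read -2.17 ± 0.23, while Acaca was called on 1 array.

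Antioxidant and signalling families had leaders known from many tissues. Sod1, the cytosolic superoxide dismutase, exceeded the mitochondrial Sod2 by 2.92 ± 0.06. Nos3, the endothelial nitric oxide synthase, read 0.38 ± 0.08, against -4.09 for the inducible Nos2, which was called on 5 arrays. Pde2a, a phosphodiesterase stimulated by cGMP, stood 3.25 ± 0.10 above Pde4a. Ak1, the cytosolic adenylate kinase, read 6.02 ± 0.04, and Ucp2 exceeded the muscle Ucp3 by 1.09 ± 0.21. Besides the inward rectifiers, the order was not the same in 4 of 4 rats for Sncg and Sncb (3 of 4), Tbx3 and Tbx2 (3 of 4), and Cav1 and Cav3 (2 of 4). Cav1, the caveolin of endothelium and other cells, read 3.99, 4.06, 3.85 and 3.72, and Cav3, the muscle caveolin, 3.90, 3.88, 3.89 and 3.90, so the former crossed the latter between rats.

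Adrenergic receptors are the route by which noradrenaline raises the force and rate of the heart. Adra1b, an alpha-1 receptor, stood at 3.33 ± 0.08, 3.96 ± 0.41 above Adra1d. Adrb1, the receptor held to dominate in ventricular myocytes, read -3.91, -3.57, -3.52 and -3.29 and was called on 5. Adrb3, the receptor of the series' title, read -6.47, -5.99, -7.03 and -6.26 and was called on 0 of 6, so it was not well above background in WT ventricle. Nppb, brain natriuretic peptide, at 5.24, 5.29, 5.10 and 5.39, was brighter than Nppa, atrial natriuretic peptide, at 3.14, 3.39, 3.17 and 4.37, and heart 6 was the high rat for Nppa.

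Probes of a single gene showed how far a signal can depend on the place read. The gap between the brightest and dimmest called probe exceeded 4 for 192 of 1416 symbols (13.6%) and was under 1 for 418 (29.5%). Among 1123 symbols with a pair of probes on the same transcript accession, the probe nearer the 3' end was the brighter in 76.8%. For pairs 1000 to 2000 bases apart the 3' probe was brighter by a median of 2.10, and for pairs under 250 bases apart by 0.45. Of 3284 symbols with several probes, 341 (10.4%) had a probe called on all 6 arrays and another called on none.

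Among probes called on all 6 arrays, the 10 largest gaps belonged to Kcng1 (9.73), Sema6c (8.93), Ndufab1 (8.83), Gnas (8.68), Peo1 (8.53), Dbi (8.30), Tpm1 (7.75), Uqcrb (7.70), Ndufv3 (7.70) and Cpt1b (7.70). Some of them set a 3' probe against another far upstream, as for Cpt1b, where the probe at base 2707 read 5.98 and that at base 678 read -1.72. In others the farther 3' probe was the dim one: Ndufab1, the mitochondrial acyl carrier protein, read 5.72 at base 413 and -3.11 at base 2509, and Uqcrb, a complex III subunit, 7.02 at base 408 and -0.68 at base 898. For these genes a call of dim or bright rests on the probe chosen. Uqcrq, another complex III subunit, was read at base 1434 of its accession and stood at -0.06 ± 0.15, the lowest of 53 nuclear oxidative phosphorylation genes, whose median was 6.36.

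Where accessions differ, a gap can follow transcript forms. Probes named for separate numbered transcript variants existed for 100 symbols, both variants were called on all 6 arrays for 42, and the median gap over these was 2.21. In Tpm1 the gap was large. Its variant 1 probe, at chr8:71339998-71340057 on the minus strand (rn4), read 8.05, 7.82, 8.02 and 7.97, and its variant 2 probe, at chr8:71331669-71331728, read 0.16, 0.38, 0.23 and 0.09. The 2 probes are printed to show the places read in the variants, the variant 1 probe whole and the variant 2 probe as a window of 30 bases.
Tpm1 variant 1: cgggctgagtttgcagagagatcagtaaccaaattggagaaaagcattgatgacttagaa
Tpm1 variant 2: gatgttggagacaatcaggtgcagattggt
The probe named for variant 1 was the brighter in 4 of 4 rats, by 7.75 ± 0.21. Tpm3 went the other way by number, with variant 2 at 0.72 and variant 1 called on 0 arrays (-6.70). For Atp2a2 the variant 2 probe read 7.88 and the variant 3 probe 3.91, a gap of 3.97 ± 0.09. Ryr2 variants 2 and 1 read 0.46 and -0.94, and the probes of Slc8a1 variants 3 and 1 differed by 0.01 ± 0.16. Whether any of these probes reads only the variant it is named for was not tested, so the gaps are gaps between probes.

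Some bright probes carry repeats rather than gene-specific sequence. Identifier (ID) elements and B2 elements are short retroposed repeats that lie in many rat transcripts, so a probe holding their core can bind RNA from many genes. The 17-base ID core shown in capitals in the following lines was found, on the strand of the probe, in 2 of 30367 probes. They were the probe of Stfa2, a cysteine protease inhibitor known from neutrophils, and the bright probe of Peo1, the mitochondrial helicase Twinkle. The 12-base B2 core was found in the probe of Ceacam9 alone, a gene known from placenta. Stfa2 and Ceacam9 were both among the 25 brightest symbols, at 8.89 ± 0.21 and 8.20 ± 0.08. Windows of 30 bases of these probes are printed. They lie at chr11:66424981-66425040, chr1:250079111-250079170 and chr1:77059860-77059918 (rn4, plus strand).
Stfa2: tgggGATTTAGCTCAGTGGTAgagcacttg
Peo1: tcttggggttgggGATTTAGCTCAGTGGTA
Ceacam9: atgaCCATCTGTAATGgccctcttctggtg
The second probe of Peo1, which lacks the core, read -1.35, against 7.18 for the one that holds it. Levels of Stfa2 and Ceacam9 are given as signals of these probes only.

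Simple repeats were found in other bright probes. Probes with at least 6 copies of a base triplet in tandem numbered 70, of which 94.3% were called on all 6 arrays, against 48.5% of all probes, with a median level of 4.07. The 28 probes with at least 9 copies of a 2-base unit in tandem were all called on all 6. Kcng1, a potassium channel subunit, had the largest gap among probes called on all 6 arrays. Its bright probe, at chr3:159427597-159427643 on the minus strand (rn4), is a triplet repeat, as is the probe of Ahsg, a plasma protein made by liver, at chr11:80327198-80327257 on the same strand. Windows of 30 bases are shown.
Kcng1: aggaggaggaggaggaggaggaggaagagg
Ahsg: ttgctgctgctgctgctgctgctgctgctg
Kcng1 read 5.63 with this probe and -4.10 with another called on all 6. Ahsg read 1.27, 1.19, 1.13 and 1.04 with the repeat probe, and -5.23 with its other probe, which was called on 1 array.

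The defining markers of the labelled tissue were present. All 20 of 20 ventricular cardiomyocyte markers were called on all 6 arrays, where 54.1% of all symbols were, with a median level of 7.89 against -3.14 for all symbols. The list included Irx4, a transcription factor of ventricular rather than atrial myocytes, at 1.17 ± 0.22, the dimmest but one. Housekeeping genes were called for 15 of 15, nuclear oxidative phosphorylation genes for 53 of 53, cytosolic ribosomal proteins for 63 of 63, fatty acid oxidation genes for 22 of 22 and citric acid cycle genes for 20 of 20. In contrast, 0 of 16 brain and 0 of 15 testis and germ cell markers were called on all 6. The corresponding counts were 2 of 15 for kidney, 2 of 14 for pancreas and 1 of 11 for intestine and stomach. The exceptions were Slc22a6 and Slc12a3, Ctrb1 and Ins1, and Alpi, all between -2.97 and -2.14. Of the list of X inactivation and Y-linked genes, Sry was the only one matched, and it was called on 4 arrays.

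Other cell types of the heart were present at lower signal. The share to compare with is again the 54.1% of all symbols called on all 6 arrays. Endothelial markers were called for 17 of 18, led by Kdr, a VEGF receptor (3.94, 3.96, 3.94 and 3.65), Fabp4 (3.13 ± 0.13), Vwf (2.63 ± 0.08) and Pecam1 (2.52 ± 0.13). The exception was Sox17 (-6.76 ± 0.53), which was called on 0 arrays. Fibroblast markers were called for 14 of 16, led by Gsn (5.99 ± 0.32), which other cells also make, Dcn (4.60 ± 0.15) and Col1a2 (4.11 ± 0.17). Postn, known from activated fibroblasts, was called on 3 arrays (-5.25 ± 0.30) and Thy1 on 1. Smooth muscle and pericyte markers were called for 12 of 14, with Des (5.81 ± 0.07), which cardiomyocytes make too, brightest and Lmod1 called on 0. Abcc9 and Kcnj8, which pair as a potassium channel of mural cells, read 2.10 ± 0.08 and 1.74 ± 0.12.

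Immune and blood cells were uneven, where 54.1% of all symbols were called on all 6 arrays. Macrophage and myeloid markers were called for 15 of 16, with Lyz2 (3.72 ± 0.27), C1qb (2.84 ± 0.30) and Cx3cr1 (2.31 ± 0.09) the brightest and Mrc1 called on 3 arrays. Lymphocyte markers were called for 6 of 17 (35.3%), led by Nkg7 (-0.41 ± 0.17) and Cd3d (-1.40 ± 0.15), while Ms4a1 and Cd79b of B cells were called on 0. Mast cell and granulocyte markers were called for 5 of 14 (35.7%), with Mcpt8 (0.02 ± 0.39) and Tpsab1 (-0.63 ± 0.20) on top. Globins were bright, with Hba1 at 8.05 and Hbb at 6.83, 7.12, 6.97 and 6.68. Of the erythroid markers 6 of 10 (60%) were called, near the share of all symbols. Genes of red cell precursors varied more: Alas2 read 0.05, 0.66, 0.33 and -0.31, and Ahsp -0.92, -0.41, -2.68 and -1.03. Globin signal was thus present in all 4 rats, and Hbb was highest in heart 3 and lowest in heart 6.

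Lists of tissues that border or resemble the ventricle gave mixed results, beside the 54.1% of all symbols called on all 6 arrays. Of the atrial and conduction list, 11 of 15 (73.3%) were called, among them Myl4 (7.35 ± 0.07), Dkk3 (3.20 ± 0.19) and Tbx3. Isl1, Shox2 and Bmp10 were among the 4 called on 0 arrays. Myl7, the atrial regulatory light chain, read 5.55, 5.13, 5.68 and 6.16. Heart 6 was highest of the 4 rats for 6 of the 11 called members, Myl7, Nppa and Sln among them, where it was highest for 29.7% of all called symbols. The other 5 were highest elsewhere, such as Myl4 in the first rat and Dkk3 in heart 4. How much atrium the dissected pieces held was not tested. The adipocyte list had 4 of 11 (36.4%) called, with Cidea at 5.18 ± 0.10 and Cfd at 1.64 ± 0.30, but Plin1, Lep and Ucp1 on 0 arrays. The skeletal muscle list had 8 of 18 (44.4%) called, of which Ckm is shared with heart, and its regulators Myod1 and Myf6 on 0.

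Nerve, Schwann cell and mesothelial markers were called for 8 of 14 (57.1%), near the 54.1% of all symbols. Th and Dbh, which make noradrenaline, read -0.94 ± 0.23 and -0.95 ± 0.14. Mbp, a myelin protein, read -0.85, -0.43, -0.08 and -0.84, with heart 4 highest and the first rat and heart 6 lowest. Of the liver list 3 of 16 were called, namely Ahsg by the repeat probe above, Cyp2e1 (-1.42 ± 0.18) and Ttr, which carries thyroid hormone in plasma. Ttr read 3.39, 3.18, 3.54 and 3.77, while Alb, Apoa1 and 10 more of the list were called on 0 arrays.

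**Figure D4:**
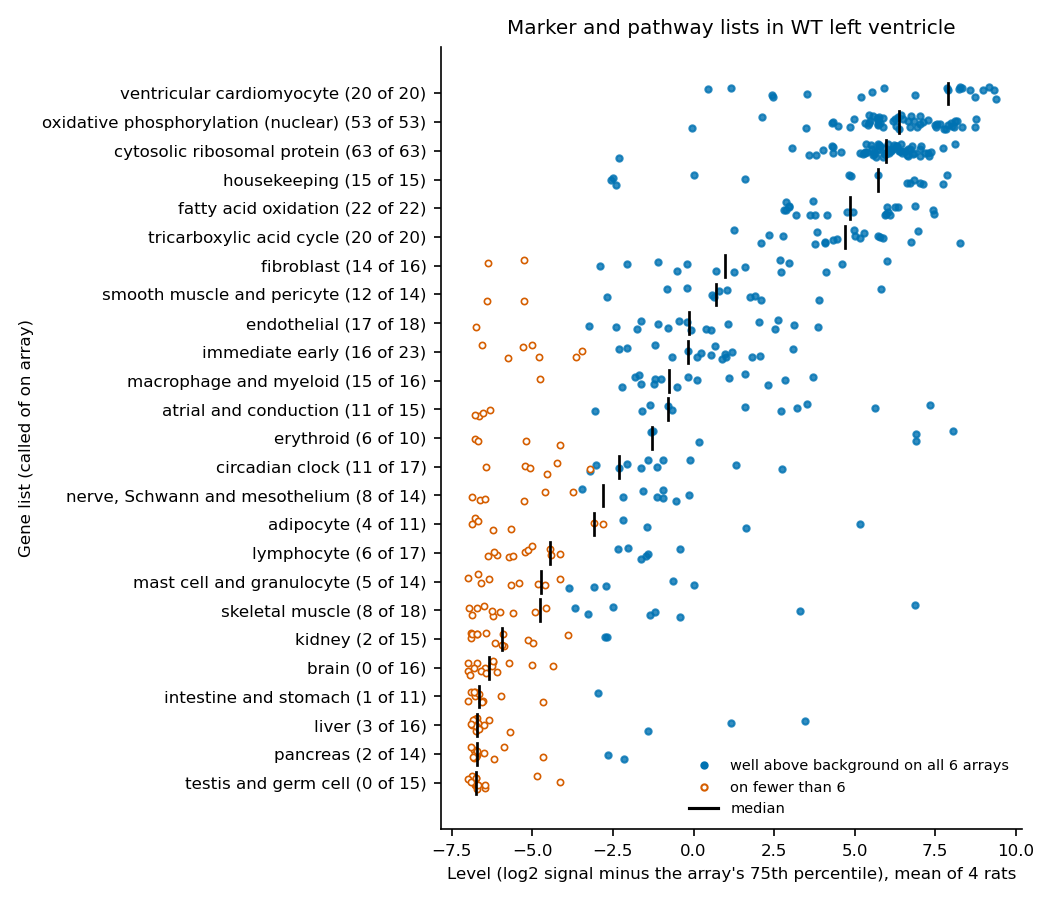
Levels of the members of 25 gene lists (x axis, level on the log2 scale, relative to the 75th percentile of the array, mean of 4 rats; y axis, list with the number called on all 6 arrays of those on the array). Filled points were well above background on all 6 arrays, open points on fewer, and the bar is the median, which runs from 7.89 for ventricular cardiomyocyte to -6.74 for testis and germ cell.

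The animals resembled each other closely. Over 9526 symbols whose brightest probe was called on all 6 arrays, the median SD between rats was 0.102 and the 90th percentile 0.251. The median absolute difference between the 2 labelings of the first rat was 0.0655, or 0.0463 when expressed as an SD. The SD between rats exceeded the absolute difference for 66.1% of symbols. An SD and a difference are unlike measures, and the share that labelling error alone would give was not computed. An SD above 0.5 was found for 157 symbols (1.65%) and above 1 for 27. The median SD was 0.233 below a level of -4, where 32 symbols lie, 0.0704 at levels of 4 to 6 and 0.0719 above 6. Lists of the energy and translation machinery were the steadiest, with a median SD of 0.0593 for ribosomal proteins and 0.0660 for oxidative phosphorylation, and 0.102 for cardiomyocyte markers. Ribosomal proteins and oxidative phosphorylation had median levels of 5.98 and 6.36, so their SDs were only slightly under those of all called symbols as bright (0.0704 and 0.0719).

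The 20 symbols with the largest SD, among those whose SD exceeded the difference between hearts 1 and 2, ran from 2.88 to 0.99, with C6 at 0.994 the last inside and Retsat at 0.994 and Ahsp at 0.983 the next outside. Cd300lg, a mucin-like endothelial receptor, led them at 1.88, 1.67, -3.23 and -3.17, and hearts 1 and 2 differed by 0.08. Its other probe also varied, with an SD of 1.67. Ccng1, cyclin G1, a p53 target, read 3.48, 3.40, 0.46 and 0.54, and Rbp2, a retinol binding protein of the gut, 3.22, 3.07, 0.98 and 1.24. Olr857, an olfactory receptor, read -0.11, -0.30, -4.72 and -4.17. In all 4 of these genes the first rat and heart 3 were high and hearts 4 and 6 low, with nothing between, and heart 5 lay with the low ones.

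Other genes singled out 1 rat. Efcab6 read -1.78, -1.81, -1.91 and 1.43, and Pde4c, a cAMP phosphodiesterase, -3.86, -3.96, -3.88 and -1.28, so heart 6 alone was high. Pcmtd1 was low in the first rat at -3.12 against -0.39, -0.25 and -0.25, and both labelings agreed (-3.19 and -3.05), but its other probe had an SD of only 0.07 between rats. Gprc5d was high in the first rat alone, at -1.23 against -4.03, -4.07 and -3.21. Esco1, a cohesin acetyltransferase, was high in heart 4 alone at -0.05, and heart 5 read -2.29 with the rest. The remaining members were Lipn, Rab15, Rnf170, Slc4a1, Esm1, Shq1, Dydc1, Reg3b, Grm4, Sln and C6. Slc4a1, the anion exchanger of red cells, read -1.09, -1.58 and -2.62 in the first rat and hearts 3 and 4 and was highest in heart 6. Shq1, a factor for making small nucleolar ribonucleoproteins, read 3.78, 3.70, 2.06 and 4.60. Across the 20 symbols heart 5 lay nearest to heart 4 for 14.

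**Figure D5:**
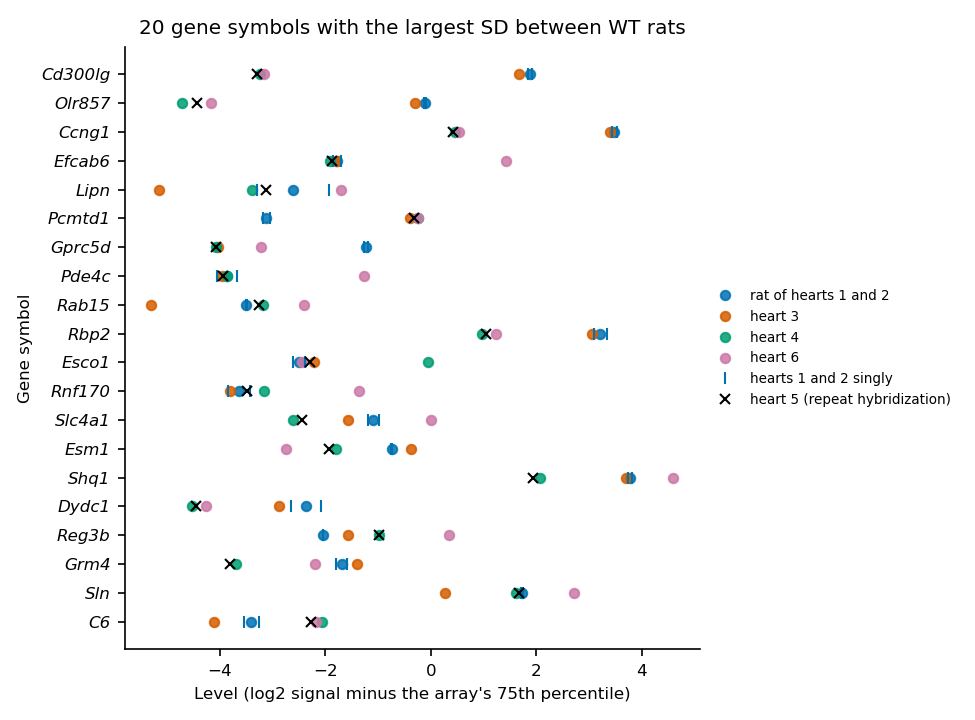
Levels of the 20 gene symbols with the largest SD between rats (x axis, level on the log2 scale, relative to the 75th percentile of the array; y axis, gene symbol), with a point per rat, ticks for hearts 1 and 2 singly and a cross for heart 5. For Cd300lg, Olr857, Ccng1 and Rbp2 the first rat and heart 3 lie apart from hearts 4 and 6, and for Cd300lg the values are 1.88 and 1.67 against -3.23 and -3.17.

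Clock genes cycle over the day in heart as elsewhere. Of the 11 called on all 6 arrays, 8 had the first rat and heart 3 both above or both below hearts 4 and 6, where 4106 of 9526 called symbols (43.1%) did. Both this division of the rats and the members named here were chosen after their values were seen. Genes of a list are not independent of each other, so the count is a description only. Dbp, an output factor of the clock, read 1.80, 2.13, 3.69 and 3.34, and Nr1d1, the repressor REV-ERB alpha, -2.23, -1.83, -0.77 and -0.83. Per2, called on 5 arrays, read -3.83, -3.83, -2.62 and -2.60. Arntl, the activator BMAL1, ran the other way at 0.38, 0.18, -0.47 and -0.57. Npas2, Cry1 and Nfil3 were likewise higher in the first rat and heart 3, with Nfil3 at -0.62, -0.88, -1.64 and -1.42. Per3, Cry2 and Bhlhe40 did not split in this way. Of the 17 clock genes on the array 11 (64.7%) were called on all 6, beside 54.1% of all symbols. The mean of those 11 was -1.11, -1.10, -1.02 and -1.08, with 4 of the 8 higher in hearts 4 and 6 and 4 lower. The sources used here do not give the hour of tissue collection.

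Immediate early genes are switched on within minutes of a stimulus. Of the 16 called on all 6 arrays, 7 were highest in heart 4 and 6 in heart 6, against 26% and 29.7% of all called symbols. The following members were chosen after their values were seen. Egr1 read 0.15, 0.20, 1.70 and 0.07, Junb 1.45, 1.59, 2.62 and 1.54, Ier2 1.90, 1.84, 2.73 and 1.79, and Cyr61 0.82, 0.61, 1.69 and 0.85. Egr2, called on 4 arrays, read -4.08, -4.45, -1.74 and -4.31. Heart 4 was the highest rat for each of these, and heart 5 gave nearly the same values (1.73 for Egr1 and 2.57 for Junb). Other members ran otherwise. Ctgf read 0.88, 1.18, 0.59 and 1.32 and Fosb 0.24, 0.28, -0.30 and 0.16, both lowest in heart 4. Fos, called on 5 arrays, read -2.65, -3.73, -3.07 and -4.34 and was highest in the first rat. Of 23 immediate early genes, 16 (69.6%) were called on all 6 arrays, beside 54.1% of all symbols, led by Jund (3.07 ± 0.07).

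The start sites of the brightest genes were searched for core promoter letters, in 250 bases upstream of each RefSeq gene start (assembly GRCr8). The 100 brightest symbols in this paragraph are those with such a sequence, so Cryab and Tnnc1, which had none, are left out. TATAAA, read on both strands, was found in 16 of the promoters of the 100 brightest symbols (16%), in 7.19% of 7816 promoters of symbols called on all 6 arrays, in 19.6% of 3706 called on none and in 13.1% of all 27457. Read on the gene's own strand 40 to 20 bases before the start, it was found in 7% of the 100 brightest, 1.39% of those called on all 6, 2.35% of those called on none and 1.33% of all. The CArG box, bound by serum response factor, and the MEF2 site were found in 2% and 3% of the 100 brightest, against 1.50% and 3.07% of all. The 100 brightest promoters had a mean GC content of 57.4%, and those called on none 49.4%. A MEF2 site can hold TATAAA, so these shares overlap. A match describes letters in the window and not a bound site.

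The 120 bases before the start are shown for Mb, the brightest symbol, for Myl3, and for Acta1, whose window holds both TATAAA and a CArG box. Capitals mark TATAAA and the CArG box read on the gene's strand. The windows lie at chr7:110647743-110647862 on the minus strand, chr8:119616974-119617093 on the plus strand and chr19:68784195-68784314 on the minus strand (GRCr8).
Mb: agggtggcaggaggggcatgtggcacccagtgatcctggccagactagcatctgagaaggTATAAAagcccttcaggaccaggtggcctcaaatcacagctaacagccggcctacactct
Myl3: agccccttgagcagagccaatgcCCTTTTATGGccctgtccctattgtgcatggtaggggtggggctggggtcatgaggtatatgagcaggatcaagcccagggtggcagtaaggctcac
Acta1: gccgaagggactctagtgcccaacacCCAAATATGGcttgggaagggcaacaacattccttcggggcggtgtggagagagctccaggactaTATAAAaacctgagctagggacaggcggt
Mb stood at 9.38, Myl3 at 8.27 and Acta1 at 5.03. Acta1 was chosen for its letters, and a link of letters with signal was not tested.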

How the data were processed

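Total RNA was isolated with Tri-Reagent, 100 ng of it was labelled with Cy3 by a low-input amplification kit and hybridized to a rat Agilent array of 60-base probes (design 028279), per the labels' protocols. The deposited scanner files, made by the authors with Agilent Feature Extraction 10.7.1.1, give a processed signal as an intensity per spot and a score of 1 or 0 for the well-above-background call, with probe positions in build rn4, per the file headers. The deposited value table of 20000 probes is on a natural log (ln) scale, and its correlation with the ln of the scanner's mean signal was 0.999. Its median was 5.71 to 5.73 per array, and its scaling and any centring stay unknown. It served only as an alternative, and 7 of its 13 columns belong to the other group and were not used.

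Control spots were left out (58717 spots and 30367 probes remained). The log2 processed signal minus each array's 75th percentile was averaged per probe, and each gene was read by its brightest probe. A gene counted as well above background where any probe was called, which the scanner software decides for each spot. The numbers of arrays and rats limit the precision. Means and SDs (n = 4 rats) are over the mean of hearts 1 and 2 and hearts 3, 4 and 6. No test between groups was run, because the arrays are of a single group, and Dixon's criterion served only to mark single rats that stood apart. Gene names are those of the array design, of which 17442 of 17597 symbols (99.1%) matched RefSeq (GRCr8). Promoter sequences are from RefSeq (GRCr8), and probe sequences are from the scanner files.

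Named were the 25 brightest symbols, the members of 66 families, the 20 symbols with the largest SD between rats above the difference between labelings, up to 4 of the highest members of each marker list with those at odds with it, and the 10 largest gaps between probes of a gene. Other members of the lists, the sensory receptors and the probes with repeats were chosen after their values were seen. So was the division of the rats used for the clock genes. Families, lists and the subject itself were chosen with earlier results of these data known. Some genes are not reported here. Of 491 list symbols 478 were matched on the array. Alternatives were other centrings, normexp background correction (offset of 50) with quantile normalization, the deposited values, other filters, the median of a gene's probes, heart 5 as a further sample, heart 1 or 2 alone for its rat, and leaving out each rat. The scripts were tested on simulated data. Python 3.11.15, pandas 2.3.3, numpy 2.4.6, matplotlib 3.10.9, R 4.3.3 and limma 3.58.1 were used.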

Additional observations from a re-analysis of the deposited data

Results flagged for a closer look

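Of 118 values tested for a rat standing apart (the gap to the nearest rat over the whole range, above Dixon's 95% critical value for 4 rats), 8 (6.78%) did so. Chance gives about 1 in 20 for values not chosen by their spread, a rate that does not hold for Efcab6, Pcmtd1, Pde4c and Esco1, which were among the 20 symbols chosen for the largest SD. Heart 3 was lowest for Myh6 at 8.91 (the others at 9.26 to 9.27), for Stfa2 at 8.58 (8.98 to 9.01) and for Atp5a1 at 8.53 (8.77 to 8.81). Heart 4 was lowest for Fabp3 at 7.35 (7.47 to 7.49) and highest for Esco1 at -0.054 (-2.50 to -2.22). Heart 6 was highest for Efcab6 at 1.43 (-1.91 to -1.78) and for Pde4c at -1.28 (-3.96 to -3.86). The first rat was lowest for Pcmtd1 at -3.12 (-0.39 to -0.25). For Esco1 heart 4 read -0.054 and heart 5 -2.29.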

How the results depend on the processing

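The count of genes well above background, 9528, became 11932 with the software's other detection call, 11260 when 3 arrays sufficed, 12950 when 1 did, 10823 without hearts 2 and 6, and 9528 to 10074 on leaving out each rat. Of the top 25 symbols, 22 to 25 stayed under every alternative run. The brightest member of 66 families was kept in 63 of 63 with the deposited values, in 65 of 66 with the median of each gene's probes, where the enolase gap turned to -1.58, and in 65 to 66 on leaving out each rat. The spread depended on the setting. The count of genes with an SD above 0.5, 157 in the report, was 78 with normexp correction and quantile normalization, 88 with the deposited values, 460 for genes called on 3 or more arrays, 2749 with no filter and 150 to 178 on leaving out each rat. The cause was not tested, although the last filters admit probes near background. The count of gaps between probes of a gene above 4, 192 in the report, was 696 with no filter and 191 to 194 on leaving out each rat. It was 140 with normexp correction and quantile normalization and 146 with the deposited values. Without the first rat the SD of Pcmtd1 and Gprc5d fell under 0.5, without heart 4 that of Esco1 and Grm4, and without heart 6 that of Efcab6, Pde4c and Rnf170. No paired analysis was possible because a single group was described and no comparison was tested.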

Other observations

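Probes of a gene could differ without order along the transcript, and other genes repeated their pattern with each probe. Btla, an inhibitory receptor of lymphocytes, read 7.88 ± 0.34 with the probe at base 564, while its probes at bases 867 and 2086 were called on 0 arrays. For Vegfa, a growth factor for endothelium, 4 probes were printed and read 4.63 at base 3407, 3.95 at base 1342, 2.07 at base 1172 and -1.15 at base 1576. All 3 Gapdh probes lay between 6.59 and 7.03. Dbp, in contrast to such genes, showed its split between rats with all 3 of its probes, at 1.80, 2.13, 3.69 and 3.34 for the brightest and -0.03, 0.39, 1.92 and 1.48 for the dimmest. Grm4 did so too: its other probe, called on 3 arrays, read -2.94, -2.37, -7.19 and -5.53.

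The limits are those of 4 rats, of which hearts 3 and 4 cannot be told apart from their slides, of a partner of heart 5 that is not named, and of probe signals that share no common scale. Each level holds for the place read by its probe.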
